A study of Mus musculus with 4 samples.

Results

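Inhibitory checkpoint receptors and the receptors for nectin ligands were followed as a set of 9 genes in Ly49H+ NK cells lacking TNFR2. The set was defined by gene symbol, with no threshold on the values, as *Tigit*, *Cd96*, *Cd226*, *Lag3*, *Cd160*, *Ctla4*, *Havcr2*, *Pdcd1* and *Cd274*, out of 35798 genes named in the count table. All 9 were among the 13822 genes that passed the filter on low counts. NK cells from wild-type mice carrying CD45.1 and from TNFR2 KO mice carrying CD45.2 were transferred together into NSG mice, the hosts were infected with murine cytomegalovirus (MCMV) a day later, and Ly49H+ cells of each CD45 allele were sorted from the spleen on D3.5 of infection. All 4 libraries therefore shared the transfer, the host and the infection, and neither an uninfected group nor another time point is analysed here. Each genotype had 2 libraries, and each library was made from cells of 3 pooled host spleens. By the labels, libraries 1 of both genotypes shared a pooled sample, and so did libraries 2. The paper describes a single experiment in duplicate on pooled spleens of 3 mice. Whether libraries 1 and 2 came from different mice is not stated. The deficiency was that of the whole donor mouse, with no Cre driver, so the transferred cells had developed without TNFR2. NSG mice lack T, B and NK cells of their own but keep myeloid cells, and carry the CD45.1 allele. The effects of genotype, of the CD45 allele and of the sort gate cannot be told apart, as all differed between the groups.

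Ly49H is the activating receptor by which mouse NK cells recognise MCMV-infected cells, and cells bearing it are activated and expand during the infection. Activated NK cells, like activated T cells, carry receptors that restrain or promote killing. TIGIT, CD96 and CD226 compete for nectin and nectin-like proteins, chiefly CD155 (encoded by *Pvr*), with CD226 giving an activating signal and TIGIT an inhibitory one. LAG-3, CD160, CTLA-4, TIM-3 (*Havcr2*) and PD-1 (*Pdcd1*) bind other partners, and PD-L1 (*Cd274*) is a ligand of PD-1 that is induced by interferons in many cell types, myeloid cells included.

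The genes lie apart in the mouse genome (GRCm38, GENCODE release 21), except that *Tigit* (chr16:43648867-43664146, minus strand) and *Cd96* (chr16:46035657-46120251, minus strand) share chromosome 16, and *Pdcd1* (chr1:94038305-94052553, minus strand) and *Ctla4* (chr1:60887000-60915832, plus strand) share chromosome 1. *Lag3* is at chr6:124904361-124911705 (minus strand), *Havcr2* at chr11:46454935-46481255 (plus strand), *Cd160* at chr3:96798763-96829351 (minus strand) and *Cd274* at chr19:29367455-29388095 (plus strand). The promoters of *Cd274*, which differed most between the genotypes, and of the paired inhibitory nectin receptors *Tigit* and *Cd96* are shown as the 250 bases before the RefSeq start site on GRCm38.p6, 5′ to 3′ on the strand of the gene. Capitals mark matches on either strand to any of 6 motifs that were searched: GAS (TTCNNNGAA), the core of ISRE (GAAA, any 2 bases, GAAA), RUNX (TGTGGT), T-box (GGTGTGA), AP-1 (TGANTCA) and NF-kB (GGG, any 2 bases, TTTCC).
Cd274, chr19:29367188-29367437, plus strand: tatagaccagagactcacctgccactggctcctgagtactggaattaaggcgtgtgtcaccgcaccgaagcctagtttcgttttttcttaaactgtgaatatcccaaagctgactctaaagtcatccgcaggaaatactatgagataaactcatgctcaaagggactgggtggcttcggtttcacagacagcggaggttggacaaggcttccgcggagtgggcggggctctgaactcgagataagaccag
Tigit, chr16:43664185-43664434, minus strand: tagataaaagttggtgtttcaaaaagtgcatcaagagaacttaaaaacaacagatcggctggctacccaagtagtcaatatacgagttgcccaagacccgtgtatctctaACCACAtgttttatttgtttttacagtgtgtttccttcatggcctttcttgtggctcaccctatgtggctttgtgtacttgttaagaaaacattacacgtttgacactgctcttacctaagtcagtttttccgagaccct
Cd96, chr16:46120249-46120498, minus strand: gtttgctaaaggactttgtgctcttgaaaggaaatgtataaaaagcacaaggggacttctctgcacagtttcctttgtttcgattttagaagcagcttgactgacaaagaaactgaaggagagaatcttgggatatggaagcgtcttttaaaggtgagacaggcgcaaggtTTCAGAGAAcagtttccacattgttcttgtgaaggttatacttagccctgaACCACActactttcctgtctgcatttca
None of the 6 motifs was spelled in the *Cd274* window. *Tigit* had a RUNX match from 140 to 135 bases before the start, read on the reverse strand as ACCACA. *Cd96* had a RUNX match on the reverse strand from 28 to 23 bases before the start and a GAS match from 79 to 71 bases before it. Of 32851 promoters of the same length, 14% held the RUNX letters, 7.02% GAS, 6.75% AP-1, 3.33% T-box, 2.98% the ISRE core and 1.41% NF-kB. RUNX letters also stood in the promoters of *Havcr2* (46 to 41 bases before the start, with AP-1 from 200 to 194) and *Cd160*, whose 2 annotated starts had RUNX matches from 101 to 96 and from 76 to 71 bases before them, the former with GAS from 234 to 226 and T-box from 189 to 183. The *Pdcd1* and *Ctla4* windows held none of the 6. These matches describe letters only and were not tested for binding, and the other genes of the set were not searched. For *Cd274*, *Tigit* and *Havcr2* the bases just after the RefSeq start were not found in the early part of a GENCODE transcript. That check did not compare start positions, so the windows and distances of every gene hold for the RefSeq start only.

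Library totals ran from 32713256 to 39543650 estimated counts. *Tnfrsf1b*, which encodes TNFR2, stood at 265 and 269 CPM (counts relative to library size after TMM scaling) in the wild-type libraries and at 55.1 and 58.6 CPM in the libraries labelled TNFR2 KO. The labelled cell type was checked by *Klra8*, the Ly49H gene, at 313 and 316 CPM in wild-type and 762 and 726 CPM in TNFR2 KO, although it belongs to a family of similar genes between which counts may be shared. Genes of the NK lineage were abundant in every library and higher in TNFR2 KO, where their summed level was 44144 to 44627 CPM against 25375 to 25418 CPM in wild-type, and 40 of 45 had a higher level at an adjusted p under 0.05. Markers of several other cell types moved the other way. Macrophage or monocyte markers summed to 4639 to 4717 CPM in wild-type and 1570 to 1582 CPM in TNFR2 KO. At both thresholds given in the next paragraph, 30 of the 33 were lower. The other 3, *Ccr2*, *Ly6c2* and *Cx3cr1*, which NK cells can also express, rose and made up 67.2% and 67.7% of the sum in TNFR2 KO, and without them the sum was 3961 to 4007 CPM in wild-type and 511 to 514 CPM in TNFR2 KO. Markers of mast cells or basophils (11 of 12 lower), of dendritic cells or class II (11 of 17 lower and 1, *Itgax*, higher), of neutrophils or their precursors (15 of 15) and of erythroid cells or megakaryocytes (10 of 10) moved the same way. The sum of B cell or plasma cell markers was 58.3 to 58.5 CPM in wild-type and 73.2 to 75.6 CPM in TNFR2 KO (1 of 5 lower). That of stromal or endothelial markers was 113 to 119 and 136 to 138 CPM (4 of 7 lower). The part of these differences in the results for the 9 genes was not tested, and in bulk samples fewer cells of a type and less RNA per cell cannot be told apart.

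Of the 9 genes, 4 rose (*Lag3*, *Tigit*, *Cd96* and *Cd160*), 4 fell (*Cd274*, *Havcr2*, *Pdcd1* and *Cd226*) and *Ctla4* did not pass the test at an adjusted p under 0.05, although scaling the libraries on NK lineage genes reversed *Cd160* and *Ctla4* and left *Cd96* short of the threshold. At this threshold 24.2% of all genes tested were higher and 26.2% lower. Of the 9, only *Cd274* was also past a log2-fold change of 1 in size, the second of the study's thresholds, and a gene past both is termed called. Among all genes tested, 11.8% were called lower and 1.56% called higher, against 1 and 0 of the 9. The values of the genotypes did not overlap for any of the 9, which was also so for 74% of all genes tested. The summed level of the 9 genes was 701 to 706 CPM in wild-type and 700 to 704 CPM in TNFR2 KO, so the 2 ranges of the sum overlapped while the makeup of the set differed. The median log2-fold change, in TNFR2 KO relative to wild-type, was 0.12 over the set and -0.003 over all genes tested.

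**Figure D1:**
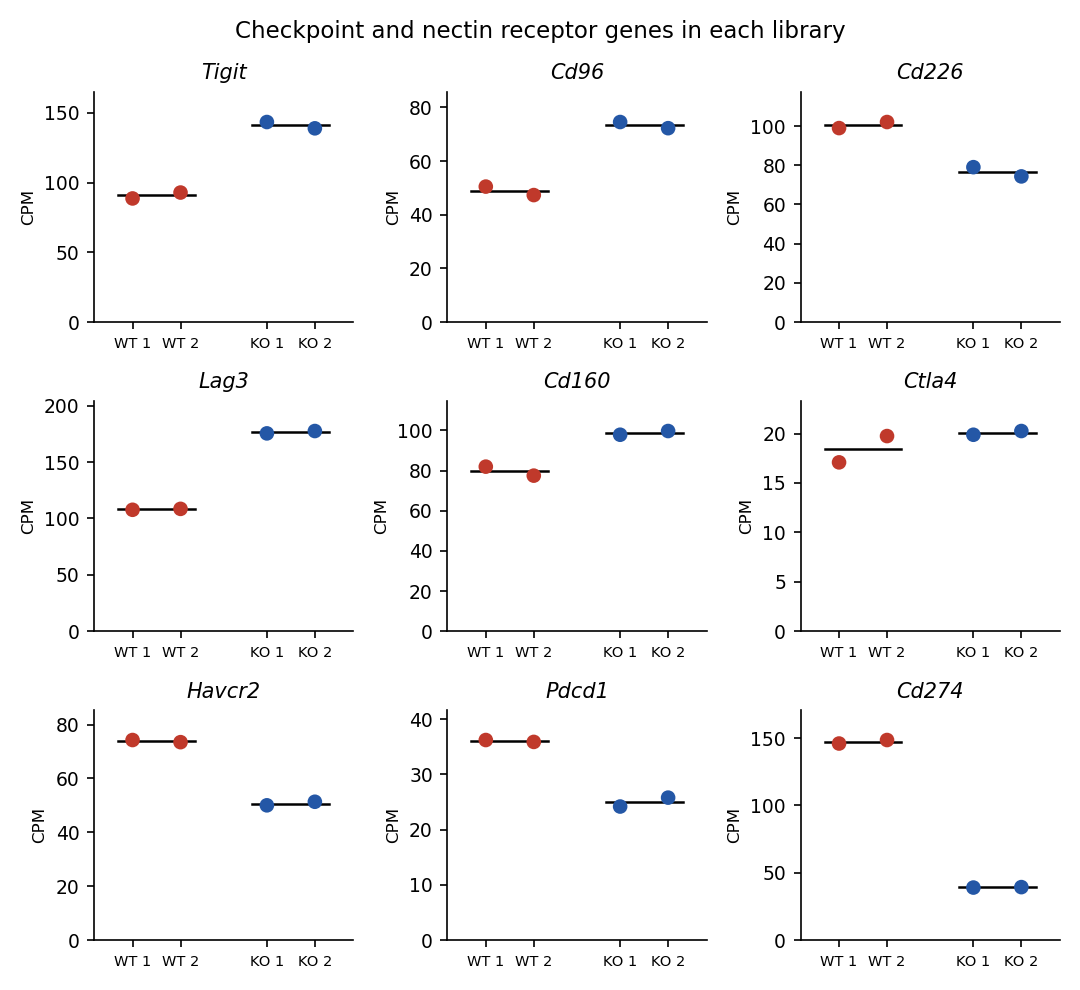
CPM of each of the 9 genes (vertical axes, from 0) in the wild-type (WT, red) and TNFR2 KO (KO, blue) libraries 1 and 2, with a bar at the mean of each pair. *Cd274* stood at 146 and 149 CPM in wild-type and at 39.1 and 39.4 CPM in TNFR2 KO, while the other 8 genes differed less, and *Cd160* and *Ctla4* reversed when the libraries were scaled on NK lineage genes.

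Among the receptors for nectin ligands, the 2 inhibitory genes were higher and the activating gene lower in TNFR2 KO. *Tigit*, whose product carries inhibitory motifs in its tail, was measured at 88.7 and 92.9 CPM in wild-type and at 143 and 139 CPM in TNFR2 KO. Both TNFR2 KO libraries lay well above both wild-type libraries, and the means were 90.8 ± 2.99 and 141 ± 3.20 CPM (SD, n = 2). The log2-fold change was 0.64 (SE 0.0360, edgeR adjusted p = 1.89e-08), a level 1.56-fold that of wild-type. *Cd96*, which restrains mouse NK cells on binding CD155, was measured at 50.5 and 47.4 CPM in wild-type and at 74.6 and 72.3 CPM in TNFR2 KO. Again the genotypes did not overlap, and the log2-fold change was 0.59 (SE 0.0455, edgeR adjusted p = 3.92e-07), while scaling on NK lineage genes left 0.09 with an adjusted p of 0.088. *Cd226* (chr18:89176967-89272229, plus strand), which encodes the activating receptor DNAM-1, was measured at 99.0 and 102 CPM in wild-type and at 79.0 and 74.3 CPM in TNFR2 KO. Its change was opposite to that of *Tigit* and *Cd96* and, under TMM scaling, smaller. The log2-fold change was -0.39 (SE 0.0403, edgeR adjusted p = 5.62e-06), or 1.31-fold higher in wild-type. After scaling on NK lineage genes the change of *Cd226* was the larger, at -0.88 against 0.14 for *Tigit* and 0.09 for *Cd96*.

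Ratios of counts within a library do not depend on how libraries are scaled. They can still differ with the mix of cells in a library, which was not tested. The ratio of *Tigit* to *Cd226* was 0.896 and 0.911 in wild-type and 1.82 and 1.87 in TNFR2 KO, a 2.04-fold difference. *Cd226* thus gave more counts than *Tigit* in both wild-type libraries and fewer in both TNFR2 KO libraries. Counts also depend on length, and the exons of *Tigit* span 919 bases against 4891 for *Cd226*. Per kilobase of exon, *Tigit* was above *Cd226* in both genotypes. The means were 98.8 against 20.5 CPM per kilobase in wild-type and 154 against 15.7 CPM per kilobase in TNFR2 KO. The ratio of *Cd96* to *Cd226* was 0.511 and 0.464 in wild-type and 0.944 and 0.973 in TNFR2 KO, a 1.97-fold difference. Neither of these 2 ratios overlapped between the genotypes, and each had a two-sided p of 0.333 in an exact permutation test, which is the smallest p that 2 libraries against 2 can give. The ratio of *Tigit* to *Cd96* was 1.76 and 1.962 in wild-type and 1.92 and 1.92 in TNFR2 KO, with a p of 1 in the same exact test. The TNFR2 KO values thus lay within the range of the wild-type pair. Of the counts of the 3 genes together, not corrected for length, *Cd226* took 41.6% and 42.1% in wild-type and 26.6% and 26.03% in TNFR2 KO. *Tigit* took 37.2% and 38.3% in wild-type against 48.3% and 48.7% in TNFR2 KO, and *Cd96* 21.2% and 19.5% against 25.1% and 25.3%.

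**Figure D2:**
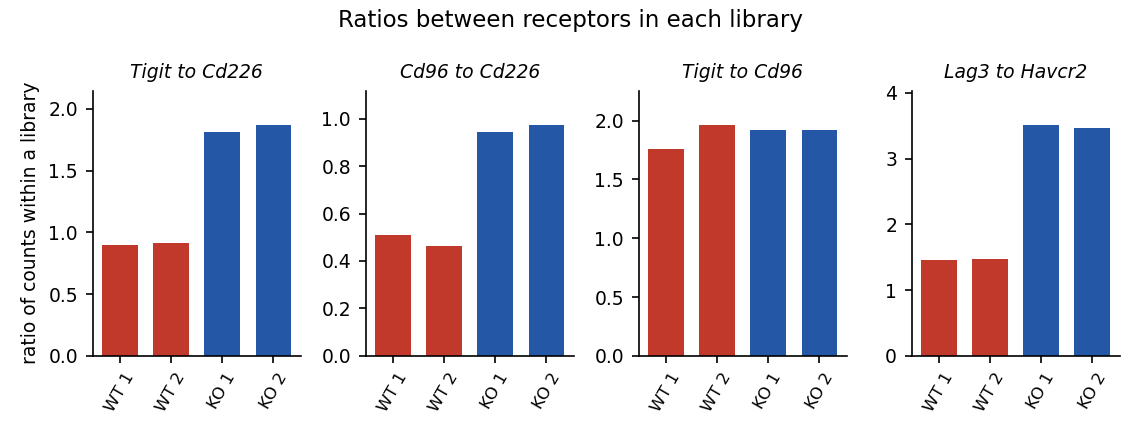
Ratios of counts within each wild-type (WT, red) and TNFR2 KO (KO, blue) library, for *Tigit* to *Cd226*, *Cd96* to *Cd226*, *Tigit* to *Cd96* and *Lag3* to *Havcr2* (vertical axes from 0, no unit). The first, second and last differ between the genotypes, reaching 1.82 and 1.87 in TNFR2 KO for *Tigit* to *Cd226*, and the TNFR2 KO values of *Tigit* to *Cd96* lie within the wild-type range.

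Ligands and the remaining receptors of this axis were a list of 8 genes, of which 5 fell and 1 rose at an adjusted p under 0.05, and 4 were called lower. *Pvr*, encoding the ligand that the 3 receptors share, was measured at 18.1 and 17.2 CPM in wild-type and at 13.2 and 13.2 CPM in TNFR2 KO, and its log2-fold change was -0.42 (SE 0.0803, edgeR adjusted p = 0.000944). *Nectin2*, whose product binds CD226 and, more weakly, TIGIT, was low, at 1.48 and 1.87 CPM in wild-type and 0.233 and 0.468 CPM in TNFR2 KO (log2-fold change -2.27). *Nectin4* fell by 3.39 on the log2 scale from 4.72 and 5.10 CPM in wild-type. *Cadm1*, an adhesion molecule that binds the receptor CRTAM, went from 12.1 and 12.7 CPM to 1.603 and 1.498 CPM. The gene of CRTAM itself did not pass the test, with a log2-fold change of -0.12 (edgeR adjusted p = 0.278). *Pvrig*, an inhibitory receptor of the same family as TIGIT, was the member of this list that rose, from 15.9 and 13.6 CPM to 27.0 and 28.3 CPM, with a log2-fold change of 0.90 (SE 0.0786, edgeR adjusted p = 1.13e-06). The list had a median log2-fold change of -1.18. *Pvr*, *Crtam* and the 2 further members, *Nectin1* (-1.94) and *Nectin3* (-0.24, edgeR adjusted p = 0.686), are named after their values were seen.

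*Lag3* had the largest rise of the set. LAG-3 binds class II molecules on antigen-presenting cells and restrains activated lymphocytes. The gene was measured at 108 and 109 CPM in wild-type and at 176 and 178 CPM in TNFR2 KO. Libraries of the same genotype differed by 0.758% of their mean in wild-type and 1.19% in TNFR2 KO, far less than the gap between genotypes. The log2-fold change was 0.71 (SE 0.0302, edgeR adjusted p = 1.30e-09), or 1.63-fold, and 20.1% of all genes tested had a larger change in either direction. *Cd160*, encoding a lipid-anchored receptor for HVEM, was measured at 82.0 and 77.5 CPM in wild-type and at 97.9 and 99.7 CPM in TNFR2 KO. These values were 1.24-fold higher in TNFR2 KO, with a log2-fold change of 0.31 (SE 0.0389, edgeR adjusted p = 3.12e-05), and reversed to -0.19 when the libraries were scaled on NK lineage genes. *Ctla4*, the inhibitory counterpart of *Cd28* and the least abundant gene of the set, was measured at 17.1 and 19.7 CPM in wild-type and at 19.9 and 20.3 CPM in TNFR2 KO. The 2 wild-type libraries differed by 14.5% of their mean, the widest gap between libraries of a genotype for any of the 9 genes. With a log2-fold change of 0.12 (SE 0.0802, edgeR adjusted p = 0.226), the gene did not pass the test, and scaling on NK lineage genes turned the value to -0.37.

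*Havcr2* and *Pdcd1*, the genes of TIM-3 and PD-1, were lower in TNFR2 KO, opposite to *Lag3* and *Tigit*. *Havcr2*, which NK cells raise on activation, was measured at 74.2 and 73.5 CPM in wild-type and at 50.02 and 51.3 CPM in TNFR2 KO. The wild-type libraries were both higher, with means of 73.9 ± 0.562 and 50.7 ± 0.935 CPM (SD, n = 2). The log2-fold change was -0.54 (SE 0.0409, edgeR adjusted p = 2.92e-07), or 1.46-fold higher in wild-type. *Pdcd1* was measured at 36.2 and 35.9 CPM in wild-type and at 24.2 and 25.8 CPM in TNFR2 KO. Only *Ctla4* was less abundant among the 9 in either genotype by CPM, and the *Pdcd1* values rest on 826 to 1373 counts per library. The log2-fold change was -0.53 (SE 0.0563, edgeR adjusted p = 6.99e-06), or 1.44-fold higher in wild-type. *Lag3* and *Havcr2*, both inhibitory receptors of activated lymphocytes, thus stood in a ratio of 1.45 and 1.48 in the wild-type libraries and 3.51 and 3.46 in the TNFR2 KO libraries. That ratio, formed after the values were seen, differed 2.38-fold between the genotypes. The part of other cell types in the *Havcr2* and *Pdcd1* values was not tested.

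*Cd274*, encoding PD-L1, had by far the largest change of the set. It was measured at 146 and 149 CPM in wild-type and at 39.1 and 39.4 CPM in TNFR2 KO. The level was 3.76-fold higher in wild-type, with means of 147 ± 1.84 and 39.2 ± 0.233 CPM (SD, n = 2). The log2-fold change was -1.91 (SE 0.0371, edgeR adjusted p = 7.82e-13), the gene ranked 75 of 13822 by p-value, and 8.11% of genes tested had a larger change. *Cd274* is a gene that the study's own heat map of its leading genes labels. In the sequence annotation, 14.6% of the 31-base stretches of its transcript also occur in other genes and 12.1% in the gene AC119228.1 alone, so a part of its counts may be shared. For *Tigit* these shares were 8.37% and, with the olfactory receptor gene *Olfr922*, 5.09%, and for the other genes of the set at most 1.65%. *Pdcd1* and *Cd274*, receptor and ligand, both fell but to different degrees, and their ratio was 0.248 and 0.241 in wild-type and 0.619 and 0.655 in TNFR2 KO. This 2.60-fold difference was also examined after the values were seen.

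Because PD-L1 is made by myeloid cells as well as lymphocytes, *Cd274* was set beside the macrophage or monocyte markers. The ratio of *Cd274* to their summed counts was 0.0310 and 0.0320 in wild-type and 0.0247 and 0.0251 in TNFR2 KO. The ratio in TNFR2 KO was 0.790-fold that of wild-type (two-sided p = 0.333, exact permutation test), but its direction rested on the 3 markers that rose, *Ccr2*, *Ly6c2* and *Cx3cr1*. Against the sum of the other 30, a division made after the values were seen, the ratio was 0.0364 and 0.0375 in wild-type and 0.0764 and 0.0766 in TNFR2 KO, or 2.07-fold higher in TNFR2 KO. *Cd274* thus fell by less than 29 of these 30 markers, whose median log2-fold change was -3.02. *Lyz2*, the lysozyme gene and the most abundant marker of that list, went from 771 and 778 CPM in wild-type to 114 and 110 CPM in TNFR2 KO. No marker of the list was at 0 in TNFR2 KO. How much of the *Cd274* difference lies in NK cells was not tested. The genes whose levels over the 4 libraries were nearest to those of *Cd274*, by Euclidean distance of log2(CPM + 1), were *Iigp1*, an interferon-inducible GTPase gene (distance 0.356), and *Ms4a4c* (distance 0.557). *Iigp1* was measured at 129 and 126 CPM in wild-type and at 35.7 and 35.1 CPM in TNFR2 KO, and *Ms4a4c* at 127 and 124 CPM against 31.5 and 30.9 CPM.

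Levels of different genes were compared as CPM per kilobase of exon, since longer transcripts give more counts. In wild-type, *Tigit* was the highest of the 9 at 98.8 ± 3.26 CPM per kilobase (SD, n = 2), followed by *Lag3* (51.3 ± 0.275) and *Cd274* (40.7 ± 0.507). *Cd160* (30.2), *Havcr2* (27.1), *Cd96* (22.4), *Cd226* (20.5), *Pdcd1* (18.7) and *Ctla4* (7.90) came next. *Tigit* and *Lag3* also led in TNFR2 KO, at 154 ± 3.48 and 83.7 ± 0.703 CPM per kilobase, whereas *Cd274* went from rank 3 in wild-type to rank 8 with 10.8 ± 0.0643. *Cd96* (33.6) stood above *Havcr2* (18.6) in TNFR2 KO and below it in wild-type. The libraries of neighbouring genes in either order did not overlap, but with the longest annotated transcript in place of all exons *Cd96* and *Cd226* overlapped in wild-type, at 22.4 and 22.4 CPM per kilobase.

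Ligands of the checkpoint receptors, other than PD-L1 and the nectins, were a list of 14 genes, of which 12 passed the filter. Of these, 11 fell at an adjusted p under 0.05, 7 of them called lower, and none rose. Their summed level was 1368 to 1369 CPM in wild-type and 554 to 556 CPM in TNFR2 KO. The class II genes that encode the partner of LAG-3 were the largest part of this, and they are also in the list of dendritic cell or class II markers. *H2-Aa* went from 286 and 294 CPM to 22.7 and 23.2 CPM (log2-fold change -3.66), and *H2-Ab1* and *H2-Eb1* had log2-fold changes of -3.49 and -3.54. *Cd74*, the invariant chain gene that leads the class II marker list, had a log2-fold change of -3.57. *Lgals3*, encoding another reported partner of LAG-3, was the most abundant gene of the list by the mean of both genotypes, though not in wild-type. It was nearly level at 243 and 237 CPM against 228 and 222 CPM (log2-fold change -0.09, edgeR adjusted p = 0.0175). The following ligands are named after their values were seen. *Pdcd1lg2*, encoding the other PD-1 ligand PD-L2, stood at 10.99 and 10.2 CPM in wild-type and at 5.48 and 5.4 CPM in TNFR2 KO. *Cd86*, a ligand of CTLA-4 and CD28, stood at 21.3 and 19.9 CPM against 7.73 and 8.49 CPM. *Tnfrsf14*, encoding the CD160 ligand HVEM, stood at 30.2 and 31.3 CPM against 14.8 and 17.9 CPM, and *Lgals9*, encoding the TIM-3 ligand galectin-9, at 218 and 208 CPM against 196 and 198 CPM. *Ceacam1*, encoding another ligand of TIM-3, was called lower, at 4.27 and 4.88 CPM against 1.06 and 0.780 CPM (log2-fold change -2.30, edgeR adjusted p = 3.20e-06).

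Other checkpoint and costimulatory receptors were a list of 15 genes with changes in both directions: 7 fell and 5 rose at an adjusted p under 0.05, none was called, and the median log2-fold change was -0.13. The inhibitory receptor gene *Klrg1*, a mark of mature NK cells, was the most abundant at 289 and 281 CPM in wild-type and 489 and 488 CPM in TNFR2 KO (log2-fold change 0.78, edgeR adjusted p = 1.10e-10). Proteins that signal below these receptors were a list of 17 genes, of which 3 fell and 9 rose. *Vav2*, an exchange factor, was called lower (log2-fold change -1.04). *Itgal*, a chain of LFA-1, the integrin to which CD226 couples, rose by 0.31 on the log2 scale from 1531 and 1544 CPM. It is also in the NK lineage list. Among 18 transcription factors linked to exhaustion in lymphocytes, 3 fell and 8 rose. Of those that rose, *Eomes* (log2-fold change 0.69), *Tbx21* (0.47) and *Id2* are also in the NK lineage list. *Ikzf2*, encoding Helios, was called lower (log2-fold change -1.24), and the most abundant, *Id2*, which NK cells need to develop, had a log2-fold change of 0.47. Regulators of PD-L1 were a list of 16 genes, of which 7 fell and 4 rose. *Ifngr2*, a chain of the interferon gamma receptor, was the only called gene among them, at 25.1 and 24.1 CPM in wild-type and 3.59 and 3.65 CPM in TNFR2 KO (log2-fold change -2.76, edgeR adjusted p = 1.79e-10). *Jak1*, the kinase that binds the other chain of that receptor, had a log2-fold change of 0.40.

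**Figure D3:**
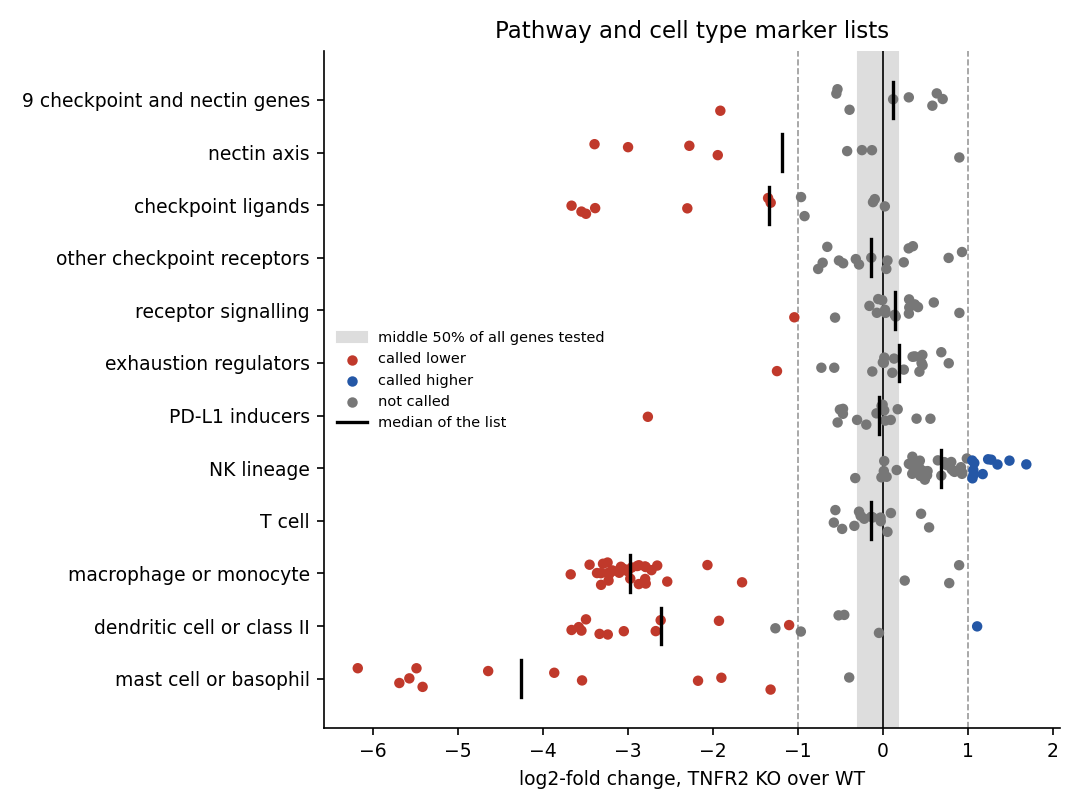
Log2-fold change in TNFR2 KO relative to wild-type (horizontal axis) of each tested gene in the set of 9, in 6 lists of related genes and in 5 cell type marker lists, with red for called lower, blue for called higher, grey for not called, a bar at each median and shading over the middle 50% of all genes tested. The set of 9 spreads on both sides of 0 with *Cd274* at -1.91, the NK lineage median is 0.69, and the macrophage or monocyte median is -2.97.

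T cells can also express *Pdcd1*, *Ctla4* and *Lag3*. The cells were enriched for NK cells by negative selection, sorted on Ly49H and kept in hosts without T cells of their own. T cell markers were detected in every library. Of 15 such genes, 8 fell and 3 rose at an adjusted p under 0.05, none was called, and the summed level was 1713 to 1731 CPM in wild-type and 1590 to 1621 CPM in TNFR2 KO. *Cd4*, the most abundant of them in wild-type and also made by some myeloid cells, was measured at 274 and 270 CPM in wild-type. In TNFR2 KO it stood at 186 and 185 CPM, a log2-fold change of -0.56, while the median of the list was -0.13. The T cell receptor gene *Trac* and *Cd3e*, named after their values were seen, stood at 123 and 122 CPM against 97.0 and 97.5 CPM, and at 119 and 120 CPM against 99.1 and 101 CPM. The 3 that rose, also named afterwards, were *Trbc1* (log2-fold change 0.55), *Trdc* (0.45) and *Cd3g* (0.10). Which cells these transcripts came from was not tested, nor was the part of those cells in the *Pdcd1*, *Ctla4* and *Lag3* values.

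Since NK lineage genes took a larger share of the TNFR2 KO libraries, all 9 genes were also compared after scaling the libraries on the median ratio of 35 NK lineage genes. That scaling moved the median of all genes to -0.50, and each member moved with it. *Lag3* (0.21) and *Tigit* (0.14) stayed higher with an adjusted p under 0.05, *Cd96* stood at 0.09, and *Cd160* (-0.19) and *Ctla4* (-0.37) reversed, both with an adjusted p under 0.05. *Cd226* (-0.88) stayed lower, and *Pdcd1* (-1.03) and *Havcr2* (-1.04) were then called lower beside *Cd274* (-2.40). Relative to the shift of all genes, *Lag3* stood at 0.71, *Tigit* at 0.64, *Cd226* at -0.39 and *Cd274* at -1.91. *Cd96* stood at 0.59, *Cd160* at 0.31, *Ctla4* at 0.13, *Pdcd1* at -0.53 and *Havcr2* at -0.54. Subtracting that shift undoes the rescaling, so these values closely repeat those under TMM scaling and are no separate check. Under either scaling, *Tigit* and *Lag3* were higher and *Cd226* and *Havcr2* lower in TNFR2 KO.

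**Figure D4:**
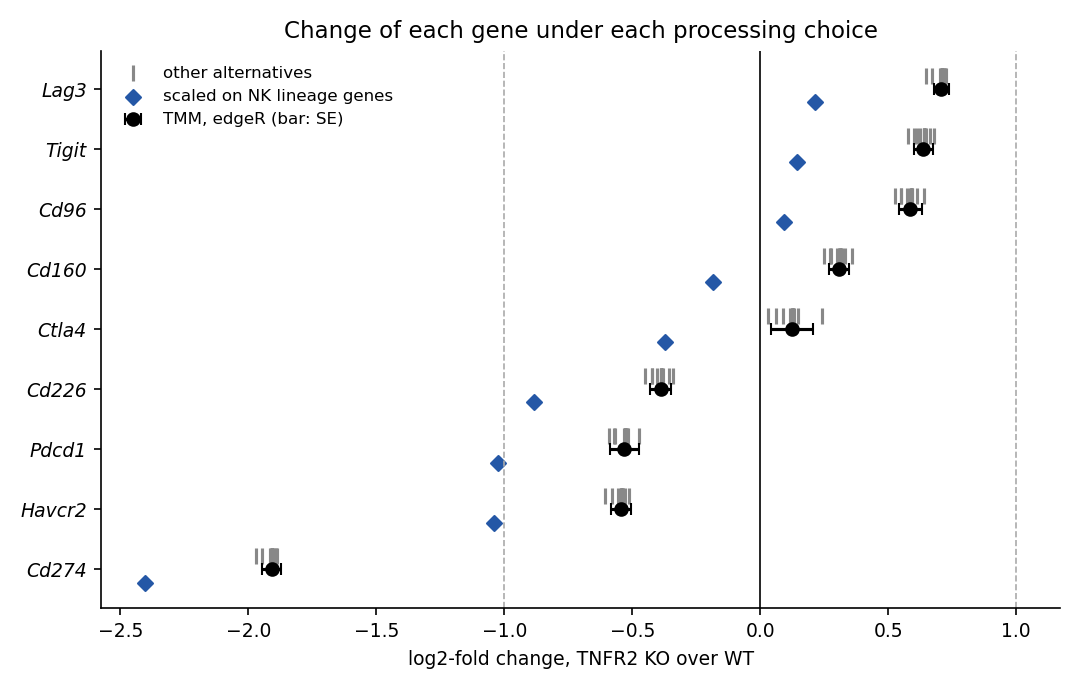
Log2-fold change in TNFR2 KO relative to wild-type (horizontal axis) of the 9 genes, with the TMM-scaled edgeR estimate and its standard error (black), the estimate after scaling on NK lineage genes (blue diamonds), 11 other processing alternatives (grey ticks) and dashed lines at the fold threshold of -1 and 1. The grey ticks keep to the side of 0 of the black points, while scaling on NK lineage genes moved *Cd160* to -0.19 and *Ctla4* to -0.37.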

How the data were processed

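RNA-seq was performed on 4 libraries of sorted splenic Ly49H+ NK cells, 2 per genotype. According to the methods and the submitters' processing notes, paired reads of stranded poly-A libraries were trimmed with Trimmomatic (version 1.4), assigned to transcripts of mm10 with Kallisto (version 0.46.1) and summed per gene with Tximport. The authors deposited these expected counts (estimated counts) for each gene symbol as they were, not scaled. The transcript annotation was not given in the sources used here. How Kallisto divided reads between transcripts that share sequence can move a gene's count.

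Groups came from the sample titles. After rounding, the counts were TMM-scaled and tested across all 13822 genes kept by filterByExpr by the quasi-likelihood test of edgeR (version 4.0.16, R 4.3.3), with a term for genotype alone and p-values adjusted by the Benjamini-Hochberg method. A positive log2-fold change means a higher level in TNFR2 KO. A row without a gene name, 0.0559% and 0.0561% of counts in wild-type and 0.0716% and 0.0728% in TNFR2 KO, was removed before library sizes were taken. Libraries of a genotype differed by more than sampling noise (mean chi-square per gene 3.29 in wild-type and 3.49 in TNFR2 KO). Nothing says that the pools were separate infections, so p-values measure the spread between these libraries, which may be technical. The labels state that same-numbered libraries share a pool of spleens, so the numbers pair the samples, and the correlation of their deviations from the group means was 0.024.

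The 9 genes and the lists (nectin axis, checkpoint ligands, other checkpoint receptors, receptor signalling, exhaustion regulators, PD-L1 regulators, and markers of the NK lineage, macrophages or monocytes, dendritic cells or class II, neutrophils, mast cells or basophils, T cells, B or plasma cells, erythroid cells or megakaryocytes, and stromal or endothelial cells) were chosen with earlier results of these data known. Named from each pathway list were the 3 called genes of lowest adjusted p in each direction and the most abundant gene, from each marker list the most abundant gene in wild-type, and for each called gene of the 9 the 2 nearest genes. The other genes were named after their values were seen. Of 16 T cell genes, 15 were in the table. *Gzma* led the NK lineage list (log2-fold change 1.08), *Mpo* the neutrophil list (-6.50), *Prss34* the mast cell or basophil list (-6.18) and *Hba-a1* the erythroid list (-2.39). *Ighm* (0.33) led the B cell list (1 of 5 tested genes called lower) and *Pecam1* (0.31) the stromal or endothelial list (4 of 7).

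Positions came from GENCODE release 21, and promoters from RefSeq (7 of the 9 genes searched). Exact permutation tests ran in SciPy 1.17.1 (Python 3.11.15), and plots in matplotlib 3.10.9. Steps were tested on simulated data. Alternatives were DESeq2 1.42.0, other scalings and filters, a replicate block and each library left out.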

Additional observations from a re-analysis of the deposited data

How the results depend on the processing

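All 9 log2-fold changes kept their direction and their side of an adjusted p of 0.05 under scaling by library size alone, by upper quartiles or by DESeq2 size factors, under the DESeq2 test, without a filter on low counts or with one at a mean of 10 CPM, under the replicate block and on leaving out any library. Scaling on NK lineage genes was the exception. It gave 2512 genes called lower and 67 called higher, 3 of the 9 genes called lower (*Cd274*, *Havcr2*, *Pdcd1*) and 2 higher at an adjusted p under 0.05 (*Lag3*, *Tigit*), with *Cd96* at 0.091 (edgeR adjusted p = 0.088) and *Ctla4* and *Cd160* reversed to -0.37 and -0.19 (edgeR adjusted p = 0.00091 and 0.000891). The median of all genes was then -0.50, and the cause of that shift was not tested. A mean of at least 10 CPM left 8765 genes, of which 424 were called lower and 56 higher. The main fit called 1627 lower and 215 higher among 13822 genes. DESeq2 called 1446 genes lower and 157 higher. The paired fit with the replicate block called 1616 lower and 214 higher and changed no call of the 9. Leaving out each library, the log2 ratio of *Tigit* to *Cd96* ran from -0.029 without wild-type replicate 1 to 0.13 without wild-type replicate 2, so its direction rests on 1 library. The log2 ratio of *Cd274* to the macrophage or monocyte markers, -0.34, reversed to 1.05 without the 3 markers of that list that rose, an alternative chosen after the values were seen. *Cd274* ran from -1.91 to -1.89 and *Ctla4* from 0.03 to 0.24. With 2 libraries per genotype, exact tests of single values could not pass a threshold of 0.05, and those tests did not use the pairing by shared pool. The depth of *Ctla4*, 648 to 769 counts per library, limits the smallest change seen there.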
